A study of Mus musculus with 107 samples.

Results

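The effect of ciliary neurotrophic factor (CNTF) on mouse neural progenitor cells (NPC) differentiating in 5% foetal bovine serum (FBS) was measured by RiboTag RNA-Seq, in which RNA is captured on ribosomes that carry a tagged Rpl22 protein. The libraries were chosen by their titles: 4 titled CNTF+5% FBS and 4 titled 5% FBS, together 8 of the 107 in the series. All 8 came from NPC derived from 1 female C57BL/6 mouse embryonic stem cell (ESC) line, labelled RiboTag +, in which Cre recombination had switched on the haemagglutinin-tagged Rpl22. The cells were therefore 1 line, and no donor variation was sampled. In both groups EGF and FGF were lowered from 100 to 1 ng/ml for 4 days and FBS was present at 5% by volume. CNTF was added in the CNTF+5% FBS group alone. The labels give 100 ng/ml for CNTF without serum and no separate dose for the combination. As references without serum, 4 SPONT libraries (EGF and FGF lowered, nothing added) and 4 CNTF libraries from the same line were used.

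CNTF is a cytokine of the interleukin-6 family. It binds its own receptor Cntfr, which pairs with Lifr and with gp130, the product of Il6st, and the Janus kinases bound to these chains activate the transcription factor STAT3. STAT3 switches on the feedback inhibitor Socs3 and, in cells of the astrocyte lineage, Gfap and other genes of reactive astrocytes. Serum carries platelet and plasma factors that the healthy central nervous system excludes, and in many cell types it turns on SRF and YAP target genes, actin stress fibres and the fibrillar matrix of fibrosis. The comparison asks which serum-associated genes moved, and in which direction, when CNTF was present as well.

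Library totals ran from 68763231 to 79176236 gene counts in CNTF+5% FBS and from 65390779 to 82432622 in 5% FBS. Levels below are counts relative to the library total, scaled by the TMM factors of edgeR (normalised CPM), and changes are log2 fold changes (log2FC) with standard errors from edgeR's quasi-likelihood test, 4 libraries against 4, called at an adjusted p under 0.01. Nothing in the labels says that the 4 libraries of a group were separate cultures, so p-values measure the spread between these libraries, which may be technical. The 5% FBS libraries spread more than the CNTF+5% FBS libraries: the SD of Col1a1 was 97.6 against 0.724 CPM and that of Gfap 3779 against 411 CPM. Lars2 and 6 structural RNAs together took 0.319% to 0.341% of the counts of 5% FBS 1, 2 and 4 but 0.0479% of 5% FBS 3, and 0.203% and 0.226% of CNTF+5% FBS 1 and 2 but 0.04% and 0.0699% of CNTF+5% FBS 3 and 4. Lars2 alone made up most of this share. It stood at 2978 to 3168 CPM in 5% FBS 1, 2 and 4 and at 350 CPM in 5% FBS 3. In CNTF+5% FBS 1 to 4 it stood at 1837, 2055, 308 and 571 CPM. The 3 low libraries, called low in structural RNA below for short, were therefore also left out together as an extra alternative.

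Of the marker sets, that of astrocytes summed highest in both groups, mostly through Gfap, and oligodendrocyte lineage markers were present too. The 9 astrocyte markers summed to 16278 to 23426 CPM in 5% FBS and 18275 to 19414 CPM in CNTF+5% FBS, and the 7 oligodendrocyte lineage markers to 1106 to 1989 and 1289 to 1401 CPM. The 5 neuronal markers summed to 48.2 to 111 and 136 to 157 CPM, with Dcx and Snap25 under 1 CPM on average in both groups. The 4 myofibroblast markers summed to 651 to 799 CPM in 5% FBS and 394 to 436 CPM in CNTF+5% FBS, with 3 lower and none higher. Of 10 microglial markers 8 averaged under 1 CPM in each group, and of 4 pluripotency markers 3 did. The 6 mural and fibroblast markers summed to 69.2 to 162 CPM in 5% FBS and to 17.1 to 19.7 CPM in CNTF+5% FBS, with 3 of the 5 tested lower, none higher, and Abcc9 at or below 3 counts in every library. In bulk libraries fewer cells of a type and less RNA per cell cannot be told apart.

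The start regions of 5 genes named below are printed because they hold the letters bound by the factor at the end of each pathway. Each is 300 bases from RefSeq on GRCm38.p6, running from 250 bases before the annotated start to 50 after, 5′ to 3′ on the gene's strand. Capitals in Socs3 and Gfap mark TTCNNNGAA, the letters of a STAT site, and capitals in Srf, Cnn2 and Myl9 mark the CArG box bound by SRF. Srf, Cnn2 and Myl9 were picked for display after their values were seen. Socs3 (chr11:117969317-117969616, minus strand) held 1 STAT match, starting 154 bases before the start, and Gfap (chr11:102897151-102897450, minus strand) held 1, starting 2 bases before it.
Socs3: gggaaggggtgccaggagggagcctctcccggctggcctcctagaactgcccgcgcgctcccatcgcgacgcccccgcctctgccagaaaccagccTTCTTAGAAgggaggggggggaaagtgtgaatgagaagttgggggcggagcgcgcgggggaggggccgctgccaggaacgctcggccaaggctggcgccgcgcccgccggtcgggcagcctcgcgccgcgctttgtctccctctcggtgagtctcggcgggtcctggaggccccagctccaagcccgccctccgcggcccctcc
Gfap: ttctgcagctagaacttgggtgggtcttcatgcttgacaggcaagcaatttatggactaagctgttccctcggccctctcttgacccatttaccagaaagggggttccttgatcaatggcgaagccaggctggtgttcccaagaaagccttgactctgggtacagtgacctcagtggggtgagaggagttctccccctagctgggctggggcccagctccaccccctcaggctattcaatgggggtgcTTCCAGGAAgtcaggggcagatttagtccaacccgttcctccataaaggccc
Srf (chr17:46556113-46556412, minus strand) held 2 CArG boxes, starting 82 and 62 bases before the start. Cnn2 (chr10:79988350-79988649, plus strand) held 1 at 56 bases, and Myl9 (chr2:156775214-156775513, plus strand) held 1 at 161 bases.
Srf: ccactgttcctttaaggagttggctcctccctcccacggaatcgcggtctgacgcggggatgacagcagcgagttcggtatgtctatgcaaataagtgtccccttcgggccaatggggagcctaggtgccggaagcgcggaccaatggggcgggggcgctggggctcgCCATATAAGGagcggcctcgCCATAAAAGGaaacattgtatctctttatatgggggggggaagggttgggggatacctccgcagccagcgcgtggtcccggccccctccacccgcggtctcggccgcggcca
Cnn2: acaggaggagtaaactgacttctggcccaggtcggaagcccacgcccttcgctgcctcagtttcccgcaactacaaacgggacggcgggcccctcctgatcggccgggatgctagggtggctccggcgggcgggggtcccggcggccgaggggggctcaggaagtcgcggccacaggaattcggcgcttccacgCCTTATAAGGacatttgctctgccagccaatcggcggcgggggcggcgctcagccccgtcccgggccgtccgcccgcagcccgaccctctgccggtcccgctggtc
Myl9: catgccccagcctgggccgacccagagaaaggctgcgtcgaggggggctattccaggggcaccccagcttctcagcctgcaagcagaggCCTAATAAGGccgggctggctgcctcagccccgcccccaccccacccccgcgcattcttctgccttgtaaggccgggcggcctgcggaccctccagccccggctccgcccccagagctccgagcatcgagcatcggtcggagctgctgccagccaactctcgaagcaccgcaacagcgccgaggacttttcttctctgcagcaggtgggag
The STAT letters stood in 8.3% of 32851 such windows and the CArG box, read on both strands, in 1.63%. Among tested genes with a window, 9 of 39 contractile genes (23.1%) held a CArG box against 1.53% of all 11606 tested genes, and 0 of 36 fibrotic matrix genes did. Of the 9 contractile genes 5 fell, 1 rose and 3 did not pass in serum, as given below. The STAT letters stood in 6 of 41 genes of the gp130 pathway (14.6%) against 8.1% of all tested genes. A match describes the letters in this window only.

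With CNTF in serum 3564 of 15272 tested genes passed the test (23.3%). Of these 1725 were higher in CNTF+5% FBS (11.3% of tested genes) and 1839 lower (12.0%), and the median log2FC of all tested genes was −0.02. All 4 CNTF+5% FBS libraries lay above all 4 5% FBS libraries for 20.5% of tested genes and below them for 19.0%, the background for every statement on overlap below. Changes of at least 2-fold numbered 255 higher and 359 lower. The count fell to 2103, 2208, 2120 and 1968 when CNTF+5% FBS 1, 2, 3 or 4 was left out, and ran from 2563 to 3908 when a 5% FBS library was left out. Without the 3 libraries low in structural RNA, a comparison of 3 against 2, 130 genes passed, of which 128 were among the 3564.

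Genes of the fibrotic matrix were lower. Of 57 tested members of that list, 35 fell (61.4%, beside 12.0% of all tested genes) and none rose, and the median log2FC of the list was −1.07. Of the mural and fibroblast markers given above, Pdgfrb, Dcn and Lum fell in the same libraries. Rgs5 (log2FC 0.91 ± 0.37) and Kcnj8 (0.28 ± 0.21) lay above 0 and did not pass. Dcn and Lum are themselves on the matrix list, and the part of such cells in the result was not tested. Col1a1 (chromosome 11, 94936224 to 94953042, GRCm38.p6), the main chain of fibrillar type I collagen, stood at 104, 282, 91.3 and 70.1 CPM in the 4 5% FBS libraries and at 10.4, 12.1, 11.6 and 11.1 CPM in CNTF+5% FBS. The groups did not overlap, 5% FBS 2 was the highest library, and the fall was 12.3-fold (log2FC −3.61 ± 0.41 SE, edgeR adjusted p = 0.000194). Col3a1, the type III chain, stood at 28.0, 110, 26.9 and 17.5 CPM in 5% FBS and at 1.29, 1.71, 1.77 and 1.62 CPM with CNTF (log2FC −4.85 ± 0.60). Again 5% FBS 2 lay above the other 3 libraries of its group, and all 4 lay above every CNTF+5% FBS library. Col1a2, which encodes the partner chain of Col1a1 in type I collagen, was near the bottom of the range in both groups, at 0.308 to 0.697 CPM and 0.303 to 0.568 CPM (137 and 130 counts over 4 libraries), and did not pass (log2FC −0.16 ± 0.34). Whether all of its reads were counted is not known here, so its values are uncertain. It averaged 0.475 CPM at 20% FBS too, where Col1a1 averaged 316 CPM.

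Other matrix genes fell by differing amounts, and 22 members did not pass. The proteoglycan Lum, at 1.93 to 12.3 CPM in 5% FBS, was under 0.1 CPM in every CNTF+5% FBS library. Col15a1 of the basement membrane zone fell by 4.52 on the log2 scale, the small proteoglycan Dcn by 4.17 and periostin (Postn), a protein of wound matrix, by 4.16. Lox, which cross-links collagen, went from 69.9, 55.0, 19.8 and 42.2 CPM to 3.47, 2.54, 2.36 and 2.79 CPM, a 17.0-fold fall (log2FC −4.08 ± 0.35, edgeR adjusted p = 4.7e-05). The microfibril gene Fbn2 fell by 3.37 and Col6a2, a chain of type VI collagen, by 1.84. Thrombospondin 1 (Thbs1), which activates latent TGF-beta, ran from 131 to 304 CPM without CNTF and from 51.5 to 64.8 CPM with it (log2FC −1.92 ± 0.22).

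Fibronectin (Fn1, chromosome 1, 71585473 to 71653280) had the most counts of the matrix genes named here. It stood at 835, 709, 734 and 823 CPM in 5% FBS and at 230, 308, 244 and 252 CPM in CNTF+5% FBS, a 3.03-fold fall (log2FC −1.60 ± 0.10, edgeR adjusted p = 7.63e-06). The elastic fibre protein Fbln5 had a highest library of 363 CPM in 5% FBS and 130 CPM in CNTF+5% FBS (log2FC −1.19 ± 0.16). The matrix result was carried by no single library: with 1 library left out at a time, 34 to 38 members fell and at most 1 rose. Without the 3 libraries low in structural RNA 14 members fell and the median was −1.23. All 35 genes that had fallen kept a log2FC below 0. Of the 3564 called genes 3549 did not overlap between the groups, so with fewer of the same libraries the direction was nearly fixed beforehand. Fap, which marks activated fibroblasts, was too low to test, with 112 counts over the 4 5% FBS libraries and 13 over the 4 CNTF+5% FBS libraries.

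**Figure D1:**
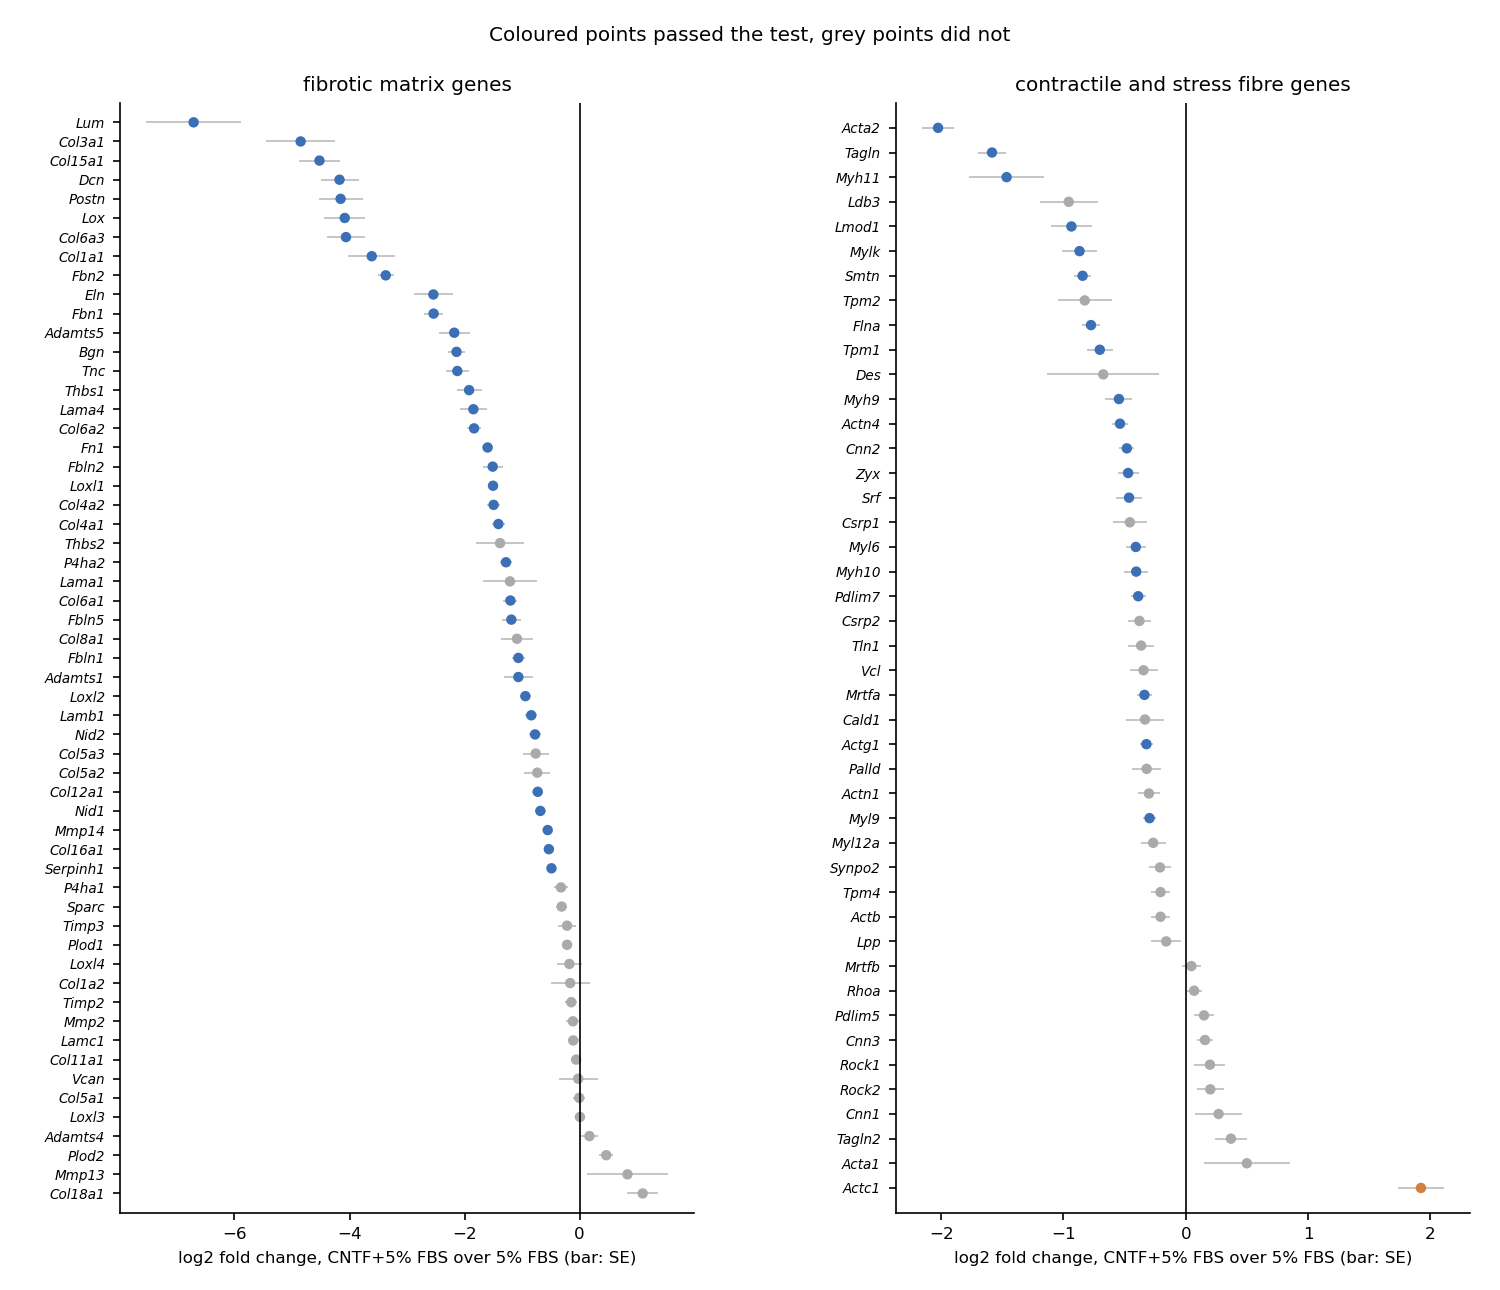
Log2 fold change (x axis, CNTF+5% FBS over 5% FBS, bars show the SE, 4 libraries a group) of every tested fibrotic matrix gene (left) and contractile gene (right), sorted. Blue points fell and orange points rose at an adjusted p under 0.01, grey points did not pass: 35 of 57 matrix genes are blue and none orange, and 19 of 44 contractile genes are blue with 1 orange.

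Contractile and stress fibre genes were lower as a group, by less. Of 44 tested members 19 fell (43.2%, beside 12.0% of all tested genes) and 1 rose (2.27%, beside 11.3%), and the median log2FC was −0.35. Leaving out CNTF+5% FBS 1 left 12 falling members. Without the 3 libraries low in structural RNA 2 members passed and the median was −0.36. That all 19 stayed below 0 was nearly fixed beforehand, since called genes seldom overlapped between the groups. Acta2 (chromosome 19, 34240336 to 34255585), the smooth muscle actin of myofibroblasts, stood at 331, 221, 216 and 226 CPM in 5% FBS and at 58.1, 57.1, 64.6 and 67.0 CPM in CNTF+5% FBS, a 4.07-fold fall (log2FC −2.03 ± 0.13, edgeR adjusted p = 1.13e-05). Library 5% FBS 1 was the highest, and the groups were far apart without it. Tagln, an actin-binding protein of smooth muscle, stood at 67.6, 65.8, 58.4 and 48.0 CPM and, with CNTF, at 19.5, 18.8, 18.7 and 23.9 CPM (log2FC −1.58 ± 0.12, edgeR adjusted p = 2.2e-05).

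Lmod1, which nucleates actin in smooth muscle, fell by 0.94 and Mylk, the kinase of myosin light chain, by 0.87 on the log2 scale. Cnn1, the calponin of differentiated smooth muscle, did not pass: it ran from 13.5 to 25.6 CPM in 5% FBS and from 19.0 to 23.6 CPM in CNTF+5% FBS, and the groups overlapped (log2FC 0.27 ± 0.19, edgeR adjusted p = 0.294). The member that rose was Actc1, the cardiac actin, which stayed under 3 CPM in all 8 libraries (log2FC 1.92 ± 0.19), and it holds a CArG box too. The genes with a printed CArG box changed by less than Acta2. Cnn2 fell from 491 to 576 CPM to 373 to 412 CPM (log2FC −0.48 ± 0.06). Myl9, a myosin light chain, fell by 0.30 and Srf itself by 0.46. The call of Myl9 was lost without CNTF+5% FBS 1, 2 or 4 (adjusted p up to 0.016), and that of Srf without 5% FBS 1 or 2 or any CNTF+5% FBS library (up to 0.0272). Of the other genes with the box, Actg1, a cytoplasmic actin, fell by 0.32 and the myosin light chain Myl6 by 0.41, and the call of Myl6 was lost without any one CNTF+5% FBS library (up to 0.0163). Skeletal actin Acta1 (log2FC 0.50 ± 0.35), the adhesion protein Vcl (−0.34 ± 0.11) and Ldb3 (−0.96 ± 0.24, adjusted p = 0.0101) did not pass.

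On the list of YAP and SRF targets 7 of 34 tested members fell (20.6%, beside 12.0% of all tested genes) and 1 rose, with a median log2FC of 0.01. The list also holds the factors Yap1, Wwtr1 and the Tead genes, none of which passed. Of its SRF targets only Srf itself passed. Leaving out CNTF+5% FBS 1 or 4 left 4 falling members. Of the targets, 2 matricellular genes often read as YAP reporters fell. Ccn2 (connective tissue growth factor) stood at 578, 352, 337 and 481 CPM without CNTF and at 135, 171, 155 and 145 CPM with it (log2FC −1.54 ± 0.16, edgeR adjusted p = 0.00013), and Ccn1 fell by 0.99. Fjx1 fell by 0.54, and Amotl1, an angiomotin that binds YAP, was the member that rose (log2FC 0.54 ± 0.10).

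**Figure D2:**
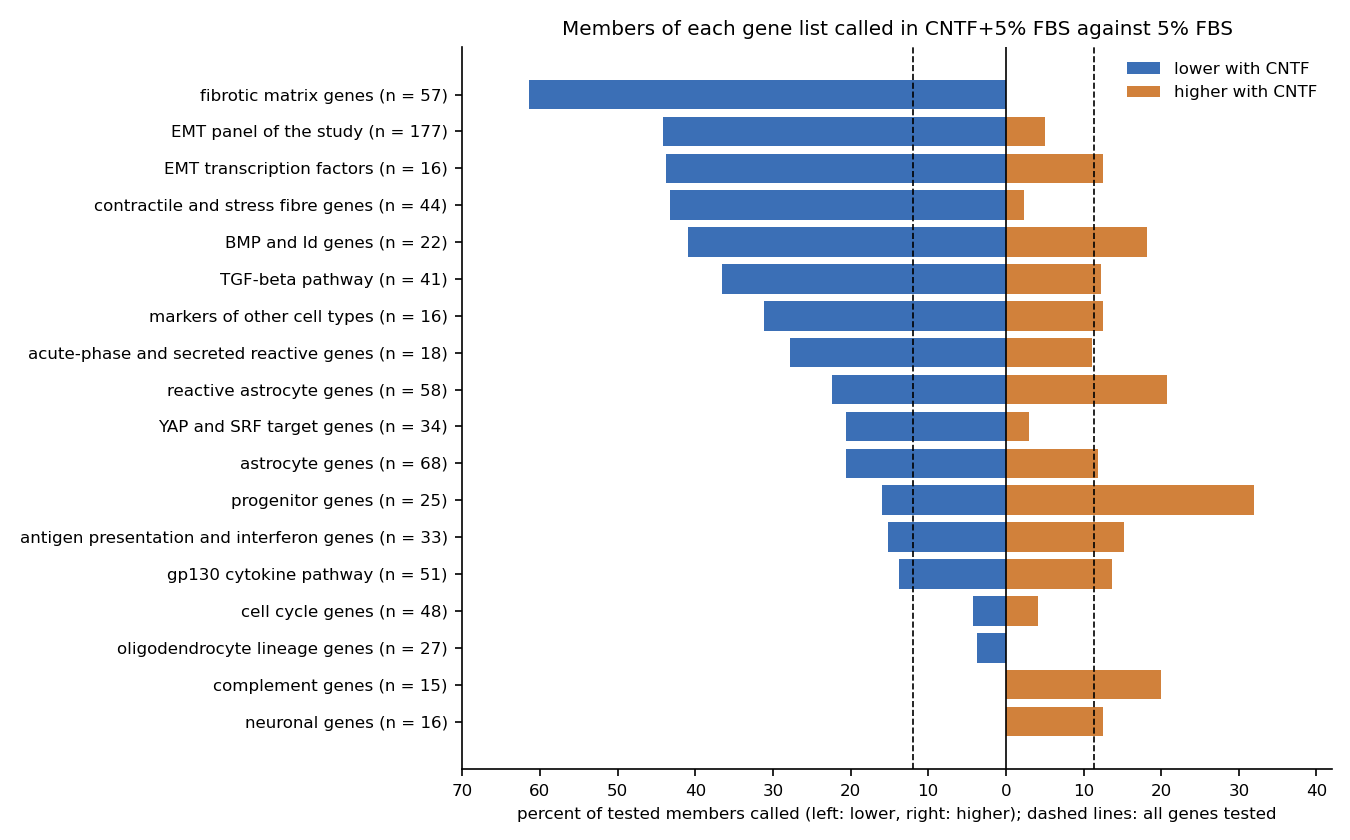
Percent of the tested members of each gene list that fell (blue, to the left) or rose (orange, to the right) in CNTF+5% FBS against 5% FBS, n being the members tested. Dashed lines mark the shares over all tested genes, 12.0% lower and 11.3% higher: the matrix bar reaches 61.4% lower, while the gp130 bars lie near the lines on both sides.

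In the TGF-beta pathway 15 of 41 tested members fell (36.6%, beside 12.0% of all tested genes) and 5 rose (12.2%, beside 11.3%). The median log2FC was −0.08. The ligand Tgfb2 fell from 75.4 to 112 CPM to 46.1 to 49.9 CPM (log2FC −0.99 ± 0.10), whereas Tgfb1 stood between 1.80 and 3.00 CPM in all 8 libraries and did not pass (log2FC 0.15 ± 0.20). Ltbp2, of the family named latent TGF-beta binding proteins, fell by 2.58. The receptors Acvr1b and Acvr2a rose, by 0.57 and 0.58 on the log2 scale, and so did Ldlrad4, an inhibitor of SMAD activation, by 0.91. The other 2 rises were the ligands Gdf11 (0.53) and Inhbb (0.41). Targets on this list are also matrix genes, Col1a1 and Fn1 among them.

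BMP and Id genes moved in both directions. Of 22 tested members 9 fell (40.9%, beside 12.0% of all tested genes) and 4 rose (18.2%, beside 11.3%), with a median log2FC of −0.38. Id1, an inhibitor of bHLH factors and a direct BMP target, stood at 361, 335, 319 and 311 CPM in 5% FBS and at 123, 124, 122 and 114 CPM in CNTF+5% FBS (log2FC −1.47 ± 0.06, edgeR adjusted p = 9.19e-07), and Id3 fell by 1.01. The ligand Bmp4 fell from 17.2 to 32.8 CPM to 5.48 to 7.33 CPM (log2FC −2.17 ± 0.19), and Bmper, which binds BMPs outside the cell, fell by 1.08. The receptor Bmpr2 rose by 0.94. The antagonist Nog rose by 0.46, a call lost without 5% FBS 3 or any CNTF+5% FBS library (adjusted p up to 0.0231). Leaving out a library left 1 to 4 rising members, with 1 left without CNTF+5% FBS 1 or 4.

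Transcription factors of epithelial-mesenchymal transition (EMT) were lower in 7 of 16 tested cases (43.8%, beside 12.0% of all tested genes). They were higher in 2 (12.5%, beside 11.3%), and their median log2FC was −0.31. Snai1, which represses epithelial genes, stood at 30.0, 18.6, 18.6 and 25.9 CPM in 5% FBS and at 4.35, 5.69, 6.35 and 5.88 CPM in CNTF+5% FBS, a 4.23-fold fall (log2FC −2.08 ± 0.18, edgeR adjusted p = 4.58e-05). Its relative Snai2 fell by 1.96, from 3.19 to 6.71 CPM, Prrx1 by 0.70 and Msx1 by 0.55. Twist1 did not pass (28.2 to 53.7 CPM in 5% FBS, up to 37.4 CPM with CNTF, log2FC −0.26 ± 0.16). Zeb1 and Runx1 rose, by 0.28 and 1.04. These 2 calls, the only rises on the list, were both lost without 5% FBS 3 or CNTF+5% FBS 1, 2 or 4 (adjusted p up to 0.0138 and 0.0243), and that of Runx1 also without 5% FBS 4 or CNTF+5% FBS 3. The call of Msx1 was lost without 5% FBS 3 or 4 or any CNTF+5% FBS library (up to 0.0176).

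On the wider EMT panel that the study chose, 78 of 177 tested genes fell (44.1%, beside 12.0% of all tested genes). Of the panel 9 rose (5.08%, beside 11.3%), and the median log2FC was −0.40. The study adapted the panel from a public EMT gene set (MSigDB) and had itself reported lower EMT genes with CNTF in 5% FBS. The count is therefore not independent evidence of a direction. Among the 9 that rose were Gja1, described below with the astrocyte genes, the integrin chain Itgav (log2FC 1.16 ± 0.13), Emp3 and the Wnt ligand Wnt5a, which went from 50.9 to 80.8 CPM to 164 to 174 CPM (log2FC 1.25 ± 0.12, edgeR adjusted p = 8.42e-05). Leaving out 5% FBS 1 gave 14 rising members, and 65 to 85 fell when any 1 library was left out. Without the 3 libraries low in structural RNA 19 members fell. All 78 falling genes kept a log2FC below 0, which was again nearly fixed beforehand by the lack of overlap.

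**Figure D3:**
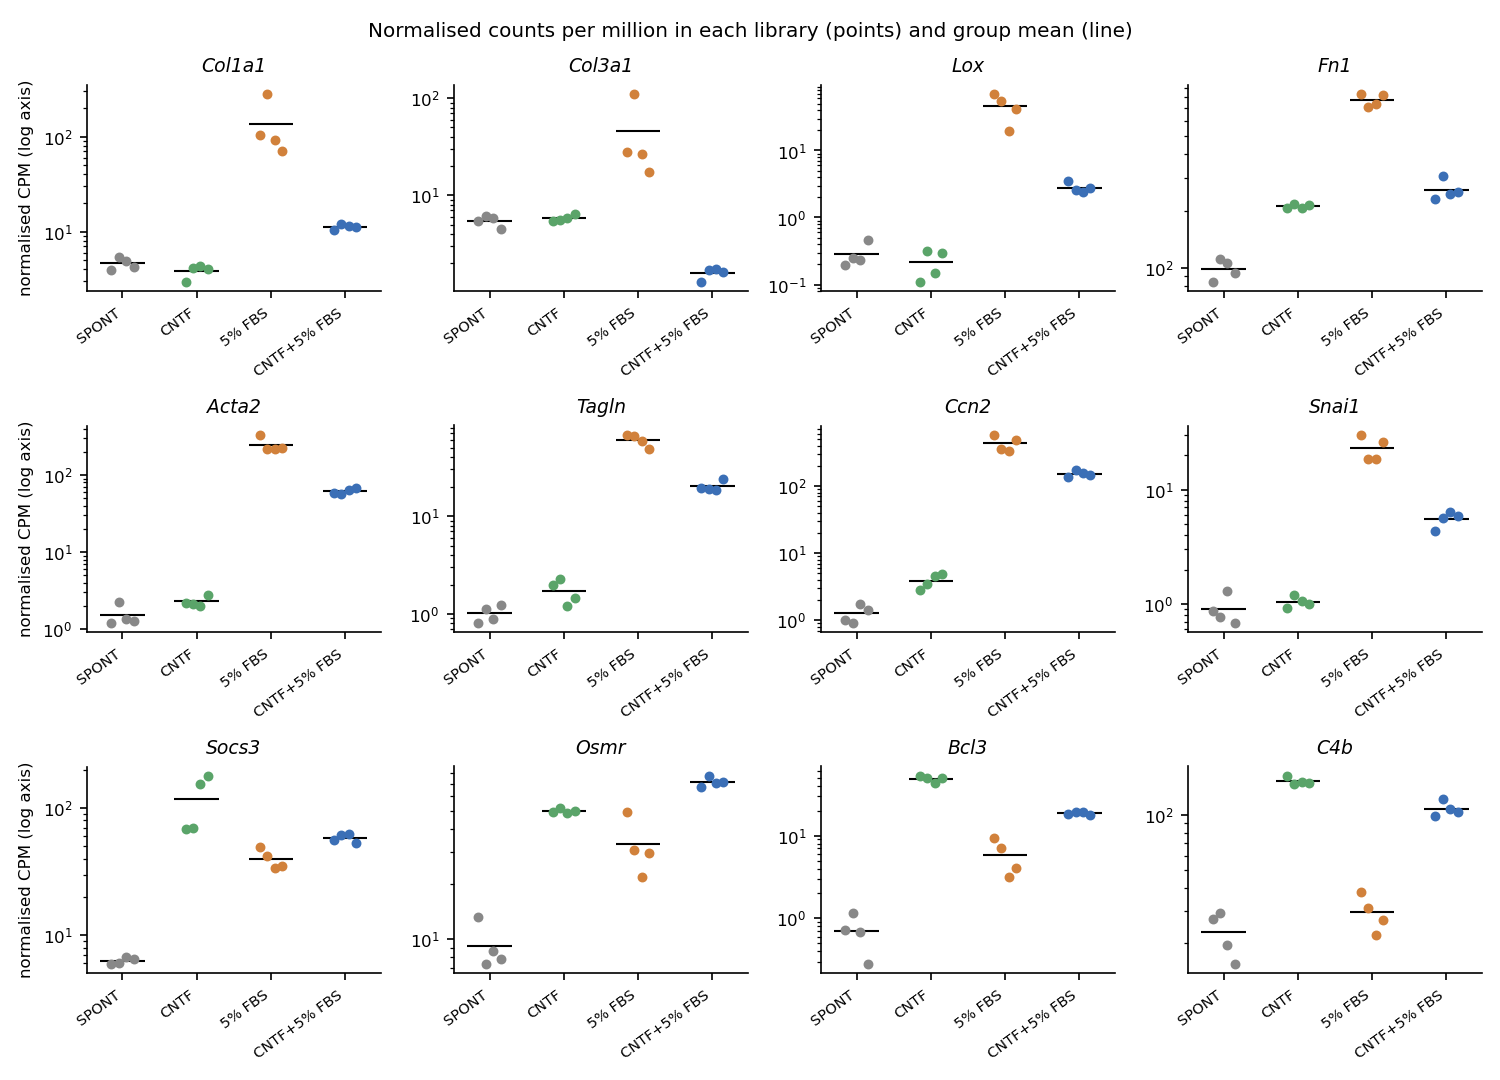
Normalised CPM (log axis) of 12 genes in the 4 libraries of SPONT, CNTF, 5% FBS and CNTF+5% FBS, points being libraries and lines group means. From Col1a1 to Snai1 every CNTF+5% FBS point lies below every 5% FBS point, and from Socs3 to C4b every CNTF+5% FBS point lies above them.

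Igfbp2, which binds IGFs and also stands on the progenitor list, went from 4093, 2884, 4169 and 4531 CPM to 600, 655, 674 and 659 CPM, a 6.13-fold fall (log2FC −2.62 ± 0.13, edgeR adjusted p = 3.12e-06). Igfbp3 fell by 1.33, and Igf1 itself from 12.1 to 28.6 CPM to 1.90 to 2.99 CPM (log2FC −3.17 ± 0.26). Among the 12 largest decreases, several stood on no list. Npvf, a neuropeptide precursor, went from 52.3 to 232 CPM to 4.16 to 5.92 CPM (log2FC −4.77 ± 0.40). Cyp26b1, which degrades retinoic acid, fell by 4.36, the calmodulin-binding peptide Pcp4 by 3.71 and Gask1b by 2.80. Pdgfrb, the receptor of mural cells and fibroblasts, fell from 22.3 to 39.6 CPM to 5.03 to 8.27 CPM (log2FC −2.29 ± 0.21).

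The gp130 pathway itself stood near the background. Of 51 tested members 7 rose (13.7%, beside 11.3% of all tested genes) and 7 fell (13.7%, beside 12.0%), with a median log2FC of 0.03. The 3 chains of the CNTF receptor did not pass: Cntfr ran from 27.8 to 41.3 CPM in 5% FBS and from 24.9 to 27.9 CPM in CNTF+5% FBS (log2FC −0.39 ± 0.11, edgeR adjusted p = 0.0177), Il6st had a log2FC of 0.20 ± 0.06 (adjusted p = 0.0255) and Lifr of 0.06 ± 0.08. Per length, in FPKM (CPM divided by exon length), Il6st was at 66.6 in 5% FBS and 77.2 in CNTF+5% FBS, above Cntfr at 12.5 and 9.67 and Lifr at 2.10 and 2.21. In SPONT, without serum, Cntfr was at 26.8 and Il6st at 16.3 FPKM, so the order of these 2 chains was the other way round. Stat3 did not pass either (265 to 358 against 322 to 355 CPM, log2FC 0.10 ± 0.09).

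The 7 members that rose were Osmr, Jak2, Socs3, Socs4, Socs7, Bcl3 and Pim2. Socs3, the feedback inhibitor whose start region is printed above, stood at 49.2, 41.7, 33.8 and 35.3 CPM in 5% FBS and at 56.5, 61.6, 62.7 and 52.6 CPM in CNTF+5% FBS (log2FC 0.53 ± 0.11, edgeR adjusted p = 0.00504). The groups did not overlap, but the call was lost without 5% FBS 3 or 4 or CNTF+5% FBS 1, 2 or 3 (adjusted p up to 0.0159). Osmr, the oncostatin M receptor that pairs with gp130, went from 49.3, 30.6, 21.7 and 29.5 CPM to 67.5, 77.3, 70.6 and 71.6 CPM (log2FC 1.11 ± 0.20, edgeR adjusted p = 0.00202). Bcl3, a STAT3 target and partner of NF-kB, rose from 3.13 to 9.44 CPM to 17.7 to 19.6 CPM (log2FC 1.65 ± 0.29). Socs4 rose by 0.71, a call lost without CNTF+5% FBS 3 or 4 (adjusted p up to 0.0109). The members that fell included the receptor chain Il11ra1, by 0.88, and the feedback inhibitor Socs1, by 0.83 on the log2 scale. The STAT5 target Cish, also an inhibitor, fell by 0.65 and the kinase Pim3 by 0.62. Feedback inhibitors and receptor chains thus stood on both sides.

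Reactive astrocyte genes were spread in both directions. Of 58 tested members 12 rose (20.7%, beside 11.3% of all tested genes) and 13 fell (22.4%, beside 12.0%), with a median log2FC of −0.18. Several genes often read as markers of reactivity did not pass. Gfap (chromosome 11, 102887336 to 102897200), the astrocyte intermediate filament, which stands on the astrocyte list, stood at 18697, 18926, 12602 and 11965 CPM in 5% FBS and at 14186, 13593, 14591 and 14085 CPM in CNTF+5% FBS, inside the range of the 5% FBS libraries (log2FC −0.16 ± 0.16, edgeR adjusted p = 0.462). Vim, the filament shared with progenitors, had a log2FC of −0.25 ± 0.08 (adjusted p = 0.0308), the protease inhibitor Serpina3n of 0.23 ± 0.18, the iron carrier Lcn2 of −0.40 ± 0.33 and the hyaluronan receptor Cd44 of 0.06 ± 0.08. Of the filaments that did change, Synm fell by 1.47 and Nes, also a progenitor gene, by 0.93. Emp3, a membrane protein of reactive astrocytes, rose from 10.0 to 12.8 CPM to 21.8 to 23.7 CPM (log2FC 0.99 ± 0.10).

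Of 15 tested complement genes 3 were higher (20.0%, beside 11.3% of all tested genes) and none lower, with a median log2FC of 0.26, and without 5% FBS 4 the number higher was 5. C4b, a component of the classical pathway, stood at 38.2, 31.3, 22.1 and 26.9 CPM in 5% FBS and at 98.6, 123, 108 and 104 CPM in CNTF+5% FBS, a 3.62-fold rise (edgeR adjusted p = 3.35e-05). Serping1, the inhibitor of the C1 proteases, rose from 3.95 to 8.38 CPM to 22.0 to 26.3 CPM (log2FC 2.13 ± 0.21). Cd55, which dissolves the convertases, rose from 1.05 to 2.06 CPM to 3.61 to 4.60 CPM. C3, with the most counts of the complement genes named here, did not pass (980 to 1925 against 1650 to 2166 CPM, log2FC 0.31 ± 0.19). C4b and Serping1 were also the 2 of 18 tested acute-phase and secreted reactive genes that rose (11.1%), while 5 fell (27.8%, beside 12.0%). The median log2FC of that list was 0.08, and −0.23 without the 3 libraries low in structural RNA. The pentraxin Ptx3 fell by 2.44 and Serpinf1, an inhibitor of vessel growth, by 1.21, and without 5% FBS 1 the list had 4 rising members.

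Genes of antigen presentation and interferon response had 5 of 33 tested members higher (15.2%) and 5 lower (15.2%), beside 11.3% and 12.0% of all tested genes. Their median log2FC was 0.05, and −0.02 without the 3 libraries low in structural RNA. The MHC class I heavy chains H2-D1 and H2-K1 rose by 0.82 ± 0.06 and 0.51 ± 0.07, H2-D1 from 22.1 to 25.4 CPM to 41.4 to 42.9 CPM. These MHC genes are close copies of one another and reads could have been split between them. The tetherin gene Bst2, an interferon target, fell by 1.16. With 1 library left out, 2 to 4 members rose and 2 to 6 fell, and 2 rose without 5% FBS 3 or any CNTF+5% FBS library.

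Of 68 tested astrocyte genes, as distinct from reactive ones, 8 rose (11.8%, beside 11.3% of all tested genes) and 14 fell (20.6%, beside 12.0%). The rises were thus near the share of all tested genes, and the median log2FC was −0.18. Among transporters, Slc1a2, the main glutamate transporter of mature astrocytes, stood at 135, 197, 219 and 152 CPM in 5% FBS and at 69.8, 72.0, 64.8 and 62.4 CPM in CNTF+5% FBS (log2FC −1.40 ± 0.14, edgeR adjusted p = 9.69e-05). Its relative Slc1a3 did not pass (log2FC 0.18 ± 0.08, adjusted p = 0.0818). The cystine transporter Slc7a11 fell by 1.46. Sparcl1, a secreted synapse-promoting protein, fell by 1.47.

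Among the 8 astrocyte genes that rose, Gja1, the main astrocyte connexin, went from 451, 585, 512 and 449 CPM to 836, 802, 825 and 832 CPM (log2FC 0.70 ± 0.09, edgeR adjusted p = 0.000276), and the adhesion protein Hepacam rose by 0.66. Chrdl1, a secreted BMP antagonist that matures synapses, rose from 20.2 to 32.6 CPM to 57.7 to 63.1 CPM (log2FC 1.23 ± 0.15), and Scg3, a granin of secretory granules, rose by 0.95. The water channel Aqp4 (26.0 to 78.2 against 46.5 to 55.4 CPM, log2FC −0.07 ± 0.32) and the calcium-binding protein S100b (24.0 to 58.1 against 23.7 to 25.8 CPM, log2FC −0.54 ± 0.24) did not pass.

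Of 27 tested oligodendrocyte lineage genes 1 fell (3.7%, beside 12.0% of all tested genes) and none rose, with a median log2FC of −0.18. The 1 was Cspg4 (NG2), which fell by 1.10, a call lost without CNTF+5% FBS 3 or 4 (adjusted p up to 0.0108), and without 5% FBS 2, its highest library, 5 members of the list rose. Pdgfra, the receptor of oligodendrocyte progenitors, did not pass (log2FC 0.33 ± 0.11, adjusted p = 0.0404). Of 16 neuronal genes 2 rose (12.5%, beside 11.3% of all tested genes) and none fell (median −0.14), namely Map2, from 288 to 311 CPM to 390 to 419 CPM, and Stmn2, which stayed under 2 CPM. Without 5% FBS 2 the neuronal genes that rose numbered 4. Progenitor genes had 8 of 25 members higher (32.0%, beside 11.3%) and 4 lower (16.0%, beside 12.0%), with a median log2FC of 0.19. Prom1 (CD133) rose by 0.92, and without CNTF+5% FBS 4 the list had 5 rising members. Those that fell were Igfbp2, Nes, the Notch target Hes5 (by 1.69) and the radial glial lipid carrier Fabp7 (by 0.40). The call of Fabp7 was lost without any one CNTF+5% FBS library (adjusted p up to 0.0239).

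Cell cycle genes were close to level, with a median log2FC of 0.02. Of 48 tested members 2 rose (4.17%, beside 11.3% of all tested genes) and 2 fell (4.17%, beside 12.0%). The inhibitors Cdkn2c and Cdkn1b rose by 0.64 and 0.40, and Cdkn1a (p21) fell from 185 to 284 CPM to 126 to 133 CPM (log2FC −0.89 ± 0.13). Cdkn1c (p57) fell by 0.55, a call lost without 5% FBS 1 or 3 or any CNTF+5% FBS library (adjusted p up to 0.0263). Of 16 tested markers of other cell types 2 rose (12.5%, beside 11.3% of all tested genes) and 5 fell (31.2%, beside 12.0%), with a median log2FC of −0.05. The 5 that fell were Dcn, Lum, Col1a1 and Pdgfrb, all markers of fibroblasts or mural cells, and Tmem119, a microglial marker that is also made by osteoblasts (log2FC −3.35), while the tight junction gene Ocln rose from 1.19 to 2.30 CPM to 4.78 to 6.85 CPM.

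The 12 largest increases lay mostly outside the lists. Nxph1, a secreted ligand of neurexins, rose from 1.23 to 2.37 CPM to 14.8 to 16.7 CPM, a 7.84-fold rise (log2FC 2.97 ± 0.17, edgeR adjusted p = 6.16e-06). Elobl stood at 10.2, 2.52, 2.22 and 3.38 CPM in 5% FBS and at 34.8, 32.5, 32.1 and 33.4 CPM in CNTF+5% FBS, with 5% FBS 1 the highest of its group. Neto1, a subunit that tunes kainate receptors, rose by 2.80 and Gm13293 by 2.89 on the log2 scale. Gpnmb, a glycoprotein of lysosomes and phagocytic cells, rose from 1.07 to 3.61 CPM to 12.1 to 14.7 CPM (log2FC 2.60 ± 0.31). Smaller rises in this set were those of Stbd1, which binds glycogen (2.44), the parathyroid hormone receptor Pth2r (2.26), the kinase Pak1 (2.12) and the calcium channel subunit Cacna2d3 (2.05). Prph, a neuronal intermediate filament, rose by 1.91, a call lost without 5% FBS 3 or any CNTF+5% FBS library (adjusted p up to 0.0145).

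CNTF without serum gave a different set of values. In CNTF against SPONT, 2961 of 14879 tested genes passed (19.9%), 1600 higher (10.8%) and 1361 lower (9.15%). The difference between the CNTF effect with serum and without it was tested gene by gene over the 16 libraries, and 3600 of 15726 genes passed (22.9%), of which 1616 were positive (10.3%) and 1984 negative (12.6%). Both counts depended on SPONT 2: without it 6049 genes passed in CNTF against SPONT and also 6049 in the test of the difference. A positive difference means a more positive log2FC of CNTF in serum. The shares of all tested genes given here (10.8%, 9.15%, 10.3% and 12.6%) are the background for the list counts below.

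**Figure D4:**
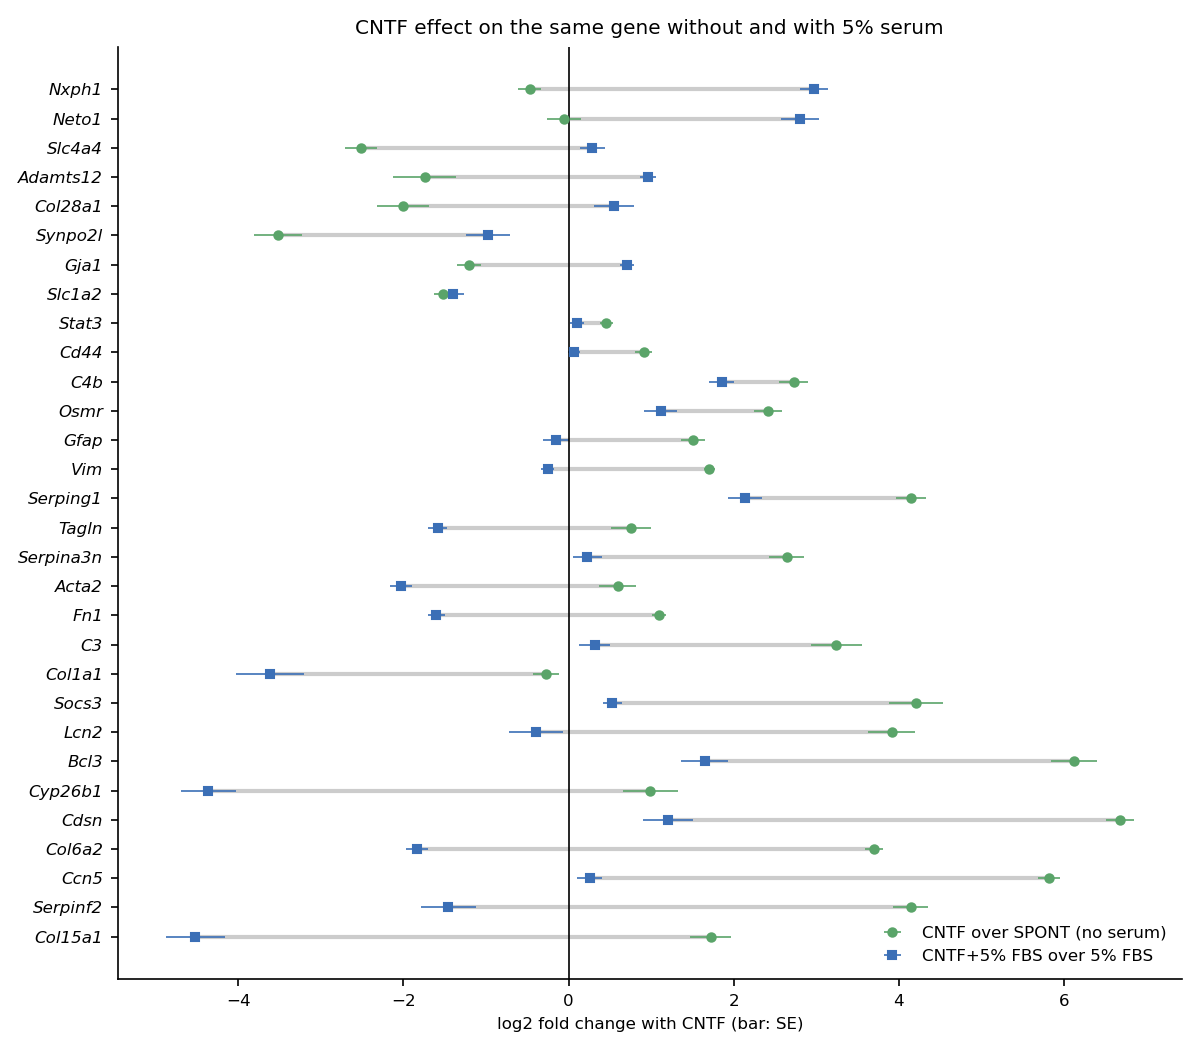
Log2 fold change with CNTF (x axis, bars show the SE, 4 libraries a group) without serum (green circles, CNTF over SPONT) and in 5% FBS (blue squares, CNTF+5% FBS over 5% FBS) for 30 named genes, sorted by the difference. For 28 of the 30 the difference passed the test, and Slc1a2 and Stat3 are the others. The 30 include the 6 largest differences each way, picked because they passed this test. Of all tested genes 22.9% passed.

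Reactive genes rose with CNTF alone and differed in serum. Of 56 reactive astrocyte genes tested without serum 39 rose and none fell, with a median log2FC of 1.60, and 37 of 58 had a negative difference (63.8%). Gfap rose from a mean of 7869 CPM in SPONT to 22399 CPM in CNTF (log2FC 1.50), and its difference was −1.67 (edgeR adjusted p = 2.98e-05). Without CNTF, 5% FBS was already at a mean of 15547 CPM. Socs3 rose from 6.31 to 118 CPM on average without serum (log2FC 4.21, difference −3.70), where CNTF 1 and 2 stood at 69.0 and 69.5 CPM and CNTF 3 and 4 at 153 and 179 CPM. Bcl3 rose from 0.709 to 48.9 CPM (log2FC 6.12, difference −4.49). Differences were also negative for Osmr (−1.32), Vim (−1.97), Serpina3n (−2.43), Lcn2 (−4.32), C3 (−2.94), C4b (−0.89), Serping1 (−2.03) and Cd44 (−0.86). That of Stat3 did not pass (−0.37, adjusted p = 0.0196).

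Acute-phase and cell cycle genes also rose without serum. Of 18 acute-phase genes tested without serum 14 rose, with a median log2FC of 2.33, and 16 of 20 had a negative difference (80.0%). Of 48 cell cycle genes 40 rose with CNTF alone and none fell, with a median log2FC of 1.17, against 2 higher and 2 lower in serum, and 35 had a negative difference (72.9%). Antigen presentation genes had 16 of 32 members higher without serum (50.0%, beside 10.8% of all tested genes) and a negative difference in 12 of 33 (36.4%, beside 12.6%). Complement genes had 8 of 15 higher without serum (53.3%, beside 10.8%).

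Matrix and contractile genes differed in the same direction. Of 56 matrix genes tested without serum 18 rose and 6 fell, with a median log2FC of 0.11, and 40 of 56 had a negative difference (71.4%), with none positive and a median of −1.46. Fn1 rose with CNTF alone, from a mean of 98.2 to 211 CPM (log2FC 1.10, edgeR adjusted p = 5.58e-06), and fell with CNTF in serum (difference −2.71). Col6a2 likewise rose from 10.6 to 139 CPM without serum (difference −5.55). Col1a1 stood at a mean of 4.64 CPM in SPONT and 3.85 CPM in CNTF (difference −3.35), and Col15a1 at 1.47 and 4.88 CPM (difference −6.26). Acta2 and Tagln were at 1.52 and 1.02 CPM in SPONT and 2.30 and 1.73 CPM in CNTF (differences −2.65 and −2.36). Of 44 contractile genes 24 had a negative difference (54.5%, beside 12.6% of all tested genes) and 1 a positive one (2.27%, beside 10.3%).

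Some genes moved the other way. Gja1 fell with CNTF alone, from 825 to 360 CPM (log2FC −1.20), and rose with it in serum (difference 1.90). The bicarbonate transporter Slc4a4 fell from 213 to 37.4 CPM without serum and did not pass in serum (difference 2.79). Nxph1 (3.43), Neto1 (2.84), Adamts12 (2.70), Col28a1 (2.54) and Synpo2l (2.53) had the other large positive differences. Ccn5, a matricellular protein, rose from 0.713 to 40.4 CPM with CNTF alone but stood at 224 to 417 CPM in 5% FBS and 360 to 398 CPM in CNTF+5% FBS (difference −5.58). Negative differences of that size were also found for Cdsn (−5.49), Serpinf2 (−5.61) and Cyp26b1 (−5.37). In serum Cdsn rose (log2FC 1.20) and Serpinf2 fell (−1.46). These 2 calls were lost without any one CNTF+5% FBS library, without 5% FBS 2, 3 or 4 for Cdsn and without 5% FBS 1 for Serpinf2 (adjusted p up to 0.0258 and 0.0271).

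The fall of Slc1a2 was of similar size with and without serum. It had a log2FC of −1.40 in serum and −1.52 without it, and the difference was 0.10 (edgeR adjusted p = 0.698). A difference that did not pass does not show that the 2 effects were equal.

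**Figure D5:**
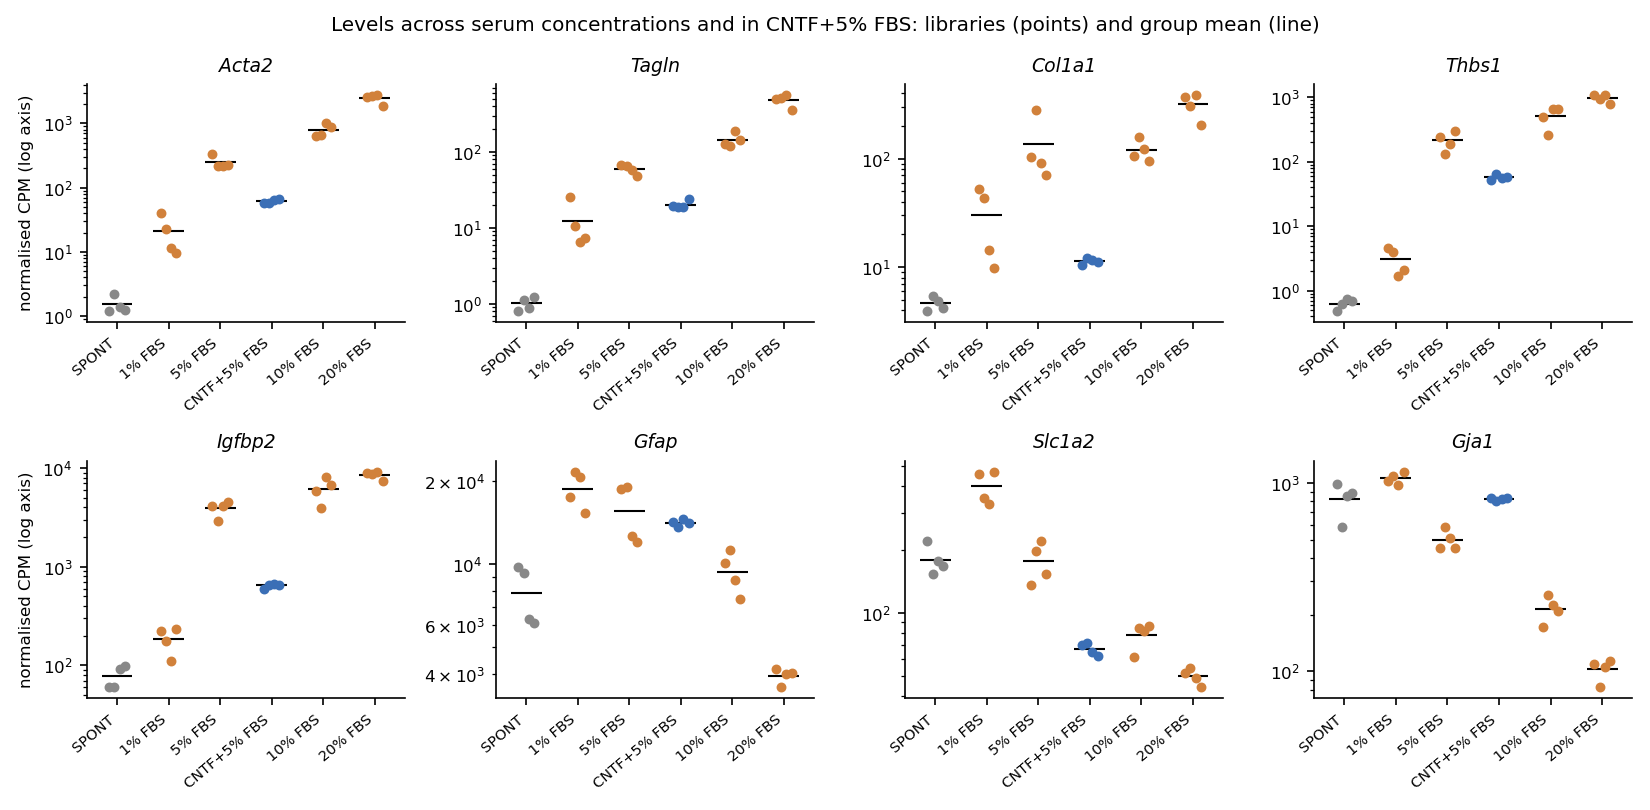
Normalised CPM (log axis) of 8 genes in SPONT, in 1%, 5%, 10% and 20% FBS and in CNTF+5% FBS (blue, placed after 5% FBS), points being the 4 libraries and lines group means. Acta2 with CNTF (mean 61.7 CPM) lies between 1% and 5% FBS, and Slc1a2 with CNTF (67.3 CPM) lies below its 5% FBS points.

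The serum series places the CNTF+5% FBS levels beside those at 1%, 10% and 20% FBS without CNTF, given here as values with no test. Acta2 averaged 1.52 CPM in SPONT and 20.9, 248, 798 and 2458 CPM at 1%, 5%, 10% and 20% FBS, and its 61.7 CPM in CNTF+5% FBS lay between the 1% and 5% means. Tagln averaged 1.02, 12.4, 59.9, 144 and 479 CPM over the same groups and 20.2 CPM with CNTF. Thbs1 (57.6 CPM) and Fn1 (258 CPM) in CNTF+5% FBS also lay between the 1% means of 3.08 and 149 CPM and the 5% means of 216 and 775 CPM. Col1a1, at 11.3 CPM, lay below its 1% mean of 30.0 CPM and above SPONT at 4.64 CPM. For matrix as a whole, of the 35 genes that fell 31 had a higher mean in 5% FBS than in SPONT and 24 were still above SPONT in CNTF+5% FBS. The 5% FBS group is shared by these counts and by the call.

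Astrocyte genes were ordered otherwise along the series. Gfap averaged 7869, 18726, 15547, 9363 and 3942 CPM from SPONT to 20% FBS and 14114 CPM in CNTF+5% FBS. Gja1 averaged 825, 1060, 499, 215 and 102 CPM and, with CNTF in 5% FBS, 823 CPM, above the mean at 5% and near that of SPONT. Slc1a2, at 67.3 CPM in CNTF+5% FBS, lay between its means at 10% FBS (78.6 CPM) and 20% FBS (49.8 CPM).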

How the data were processed

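The authors deposited raw counts per gene, which per the labels came from featureCounts after trimming (Trimmomatic) and HISAT2 alignment on mm10 (versions not given in the sources used here). Counts of 27179 genes in 32 of 107 libraries were read, and genes were named from RefSeq (25275) or GENCODE (18). Levels are CPM scaled by TMM over the 32 libraries.

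Comparisons used edgeR 4.0.16 in R 4.3.3 (TMM, filterByExpr, quasi-likelihood F test, Benjamini-Hochberg, adjusted p under 0.01), after a test on simulated data. CNTF+5% FBS was fitted with 5% FBS alone, CNTF with SPONT alone, and the difference of effects over all 16 libraries. Alternatives were DESeq2 1.42.0, its size factors, other filters, a replicate block, all groups in one fit and each library left out. Deviations of same-numbered libraries correlated at r = −0.029 to 0.0982 between CNTF+5% FBS and 5% FBS, −0.131 to 0.0163 between CNTF and SPONT and 0.0586 to 0.197 between 5% FBS and SPONT. Not every pair was over 0.1, so numbers were not taken as pairs.

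Members and the 18 gene lists were chosen with earlier results of these data known. Named genes were the 12 largest non-overlapping changes a direction, up to 4 called genes a list and direction, all at 10 CPM or more, a set of 32 pathway genes, the 6 largest differences each way, and some picked after their values were seen (Srf, Cnn2, Myl9, Col1a2, Lum, Actc1, Cd55, Stmn2, Inhbb, Cdkn1c, Tmem119, Ocln, Bst2, Actg1, Myl6, Acta1, Vcl, Ldb3). Some genes that the rule names are not reported here.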

Additional observations from a re-analysis of the deposited data

Results flagged for a closer look

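In 24 of 320 groups of 4 libraries of the named genes, 1 library stood apart from the other 3 by Dixon's 95% criterion, where chance gives about 1 in 20. In 5% FBS 2 these were Col1a1 (282 CPM, the others 70.1 to 104), Col3a1 (110 CPM, the others 17.5 to 28.0) and Pdgfra (146 CPM), each the highest, and Actg1 (759 CPM), the lowest. In 5% FBS 1 they were Acta2 (331 CPM), Cnn1 (25.6 CPM), Prom1 (48.4 CPM) and Elobl (10.2 CPM) as the highest and Msx1 (8.95 CPM) as the lowest. In CNTF+5% FBS 4, Tagln (23.9 CPM) and Acvr1b (74.2 CPM) were the highest and Id1 (114 CPM) the lowest, in CNTF+5% FBS 1 Fbln5 (110 CPM) and Col28a1 (10.3 CPM) were the lowest, and Stat3 (355 CPM) and Vcl (265 CPM) in CNTF+5% FBS 2 and Cdkn1a in CNTF+5% FBS 3 (133 CPM) were the highest.

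Without serum, SPONT 2 was the highest for Acta2 (2.24 CPM) and Serping1 (0.947 CPM) and the lowest for Adamts12 (2.64 CPM, the others up to 11.2 CPM), and SPONT 1 was the highest for Cdsn (1.04 CPM). Of the CNTF libraries, CNTF 1 stood highest for Cyp26b1 (1.25 CPM) and CNTF 3 for Serping1 (13.2 CPM) and Synpo2l (1.92 CPM). What set these libraries apart was not tested.

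The CNTF effect differed between 5% FBS and no serum, by edgeR's test of the difference, for 28 of the 30 genes examined. The 30 include the 6 largest differences each way, which were picked because they passed this test. Their passing was therefore fixed by the choice, and 28 of 30 is not a rate. Of all tested genes 22.9% passed. On the log2 scale (effect in serum minus effect without) the matrix and contractile genes gave Col15a1 −6.26, Col6a2 −5.55, Col1a1 −3.35, Fn1 −2.71, Acta2 −2.65 and Tagln −2.36. The pathway, reactive and complement genes gave Bcl3 −4.49, Lcn2 −4.32, Socs3 −3.70, C3 −2.94, Serpina3n −2.43, Serping1 −2.03, Vim −1.97, Gfap −1.67, Osmr −1.32, C4b −0.89 and Cd44 −0.86. The other negative differences were those of Serpinf2 (−5.61), Ccn5 (−5.58), Cdsn (−5.49) and Cyp26b1 (−5.37). Positive differences were those of Nxph1 (3.43), Neto1 (2.84), Slc4a4 (2.79), Adamts12 (2.70), Col28a1 (2.54), Synpo2l (2.53) and Gja1 (1.90).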

How the results depend on the processing

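The count of genes passing in CNTF+5% FBS against 5% FBS (3564) was 3567 with DESeq2 size factors, 3475 with no filter, 3522 with at least 1 CPM in 4 libraries, 3478 with all groups in one fit and 5006 with DESeq2. It ran from 1968 to 3908 with 1 library left out and was 130 without 5% FBS 3 and CNTF+5% FBS 3 and 4, an alternative chosen after seeing the data, with fewer libraries. CNTF against SPONT (2961) gave 4678 with all groups in one fit and 2027 to 6049 with 1 library left out, and the difference of effects (3600) gave 2702 to 6049; the cause was not tested. The numbers were not taken as pairs, since not every pair of libraries correlated over 0.1, and a replicate block gave 2516, 2059 and 3332 genes. Of 1818 alternatives for 130 named genes in serum 1716 kept direction and side of the threshold, 78 lost the call, 18 gained it and 6 turned sign, none of these called. The turns, on the log2 scale, were Aqp4 (0.10 with the replicate block, −0.28 to 0.21 with 1 library left out), Lcn2 (−0.62 to 0.0706), Cd44 (−0.0074 to 0.122) and Col1a2 (−0.33 to 0.0822). Without serum Neto1 turned (0.0021 with the block, −0.24 to 0.0557 with 1 library left out), as did the difference of Slc1a2 (−0.0126 to 0.23). With any 1 library left out 90 of 105 called named genes kept their call, and many of these had been picked by the size of their change. Of all 3564 calls, 54.9% to 60.7% were kept when a CNTF+5% FBS library was left out and 70.3% to 91.0% when a 5% FBS library was. The counts for named genes do not cover the fit without the 3 libraries low in structural RNA, which kept 3.59% of the 3564 calls. The depth of 65390779 counts and more leaves the spread between libraries, not counting, as the limit for genes above a few CPM.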
